A study of Homo sapiens with 4 samples.

Results

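The 10 genes described here are known targets of the transcription factor p53. They were picked by name, with earlier results of these data known. They are MDM2, TP53INP1, SESN1, BTG2, ZMAT3, FDXR, RRM2B, GADD45A, TP53I3 and PLK3, out of 22148 genes in the authors' Gene Ontology (GO) background. Group A comprised HepG2 cells before treatment and group B HepG2 cells after sonodynamic therapy (SDT) with targeted nanobubbles carrying lonidamine (LND). Group C comprised Huh7 cells before treatment and group D Huh7 cells after the same treatment. SDT uses ultrasound to excite a sensitizing drug, here hematoporphyrin monomethyl ether (HMME), which the nanobubbles carried together with LND. Each group was sequenced as 1 library of ribosomal RNA-depleted total RNA, so no value has a replicate error. Both are established human liver cancer lines, each from 1 tumor. Of the hepatocyte genes ALB, AFP, APOA1, TTR and SERPINA1, ALB and AFP were called different after treatment (listed, as defined below) in both lines. APOA1 and TTR were listed in Huh7 cells alone, and SERPINA1 in neither line. Of all background genes, 10.3% were listed in both lines, 9.43% for Huh7 alone and 69.0% for neither. Listing does not give the level of these genes in the cells.

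p53 is held at a low level in unstressed cells because MDM2, itself a p53 target, marks it for degradation. DNA damage and oxidative stress release p53 from this control, and it then switches on genes that halt the cell cycle, repair DNA, limit oxidants or promote apoptosis. HepG2 cells carry wild-type p53, whereas Huh7 cells carry a mutant form with impaired binding to DNA. The comparison of these lines therefore sets a line with wild-type p53 beside one without it, although the lines also differ in many other respects that cannot be told apart from p53 with 1 library per group.

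A gene was called listed in a comparison when its identifier stood under any GO term of the authors' table of differentially expressed mRNAs for that comparison. The authors called these mRNAs at an adjusted p-value under 0.05. Listing therefore says that a difference between the libraries after and before treatment was called, and gives neither its size nor its direction. A listed gene stands under the terms and pathways that annotate it, so the number of its terms describes annotation only. A gene that was not listed may have missed the threshold, may have been too low to test, or may have carried no GO term. No expression value, fold change or read depth was used here.

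In HepG2 cells (group B vs. A), 7 of the 10 p53 target genes were listed: MDM2, TP53INP1, SESN1, BTG2, ZMAT3, GADD45A and PLK3. Of all GO background genes, 21.6% were listed in the same comparison, and 23.9% of protein-coding genes. In Huh7 cells (group D vs. C), 2 of the 10 were listed, GADD45A and PLK3. Of all background genes, 19.7% were listed there, and 21.9% of protein-coding genes, so the members' share in Huh7 cells was near the background. GADD45A and PLK3 were thus listed in both lines, while MDM2, TP53INP1, SESN1, BTG2 and ZMAT3 were listed in HepG2 cells only. No member was listed in Huh7 cells only. FDXR, RRM2B and TP53I3 were listed in neither line. Among all background genes, 10.3% were listed in both lines, 11.3% for HepG2 alone, 9.43% for Huh7 alone and 69.0% for neither. The 10 genes are a fixed and small set, and the difference between the cell lines was not tested.

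**Figure D1:**
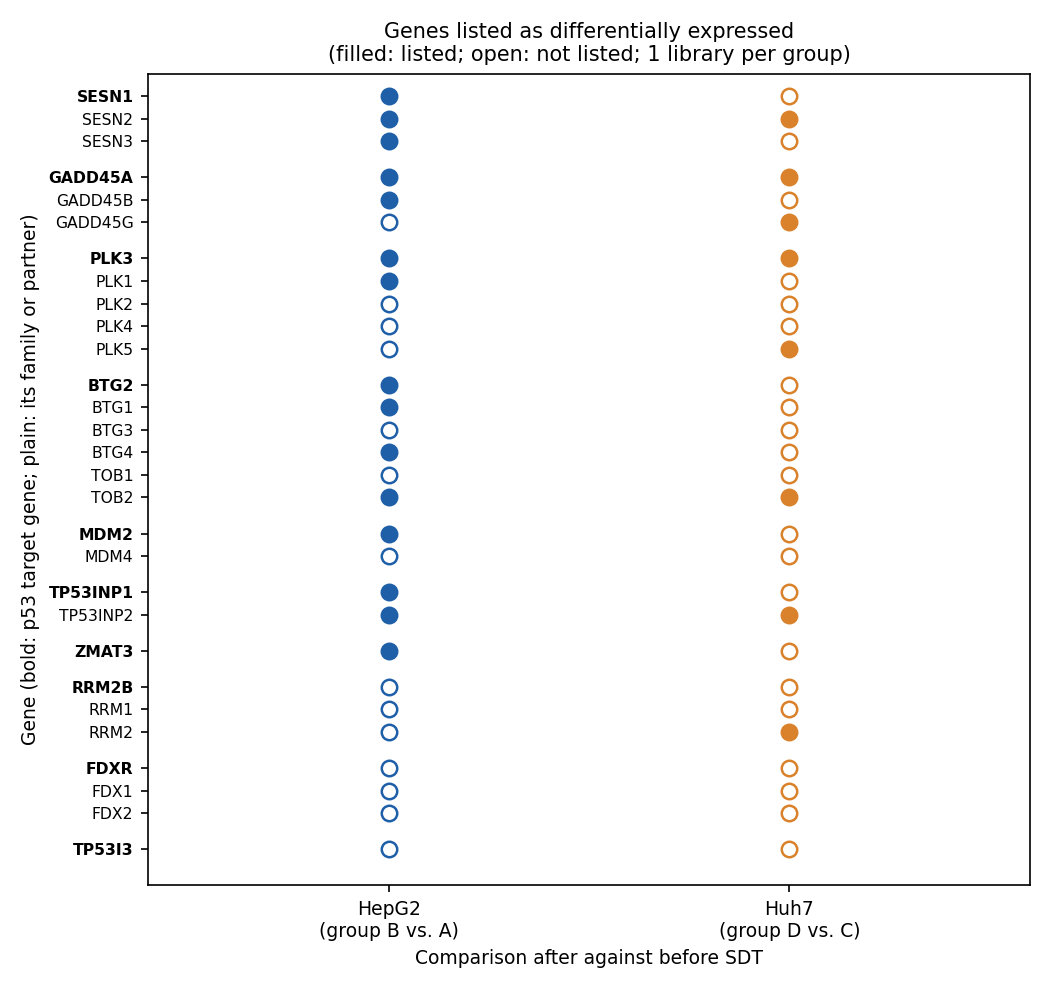
Listing of the 10 p53 target genes (bold) and of their family or partner genes (plain) in HepG2 cells (group B vs. A, blue) and Huh7 cells (group D vs. C, orange), where a filled circle is a listed gene and an open circle a gene not listed. Of the bold genes, 7 are filled in the HepG2 column and 2 in the Huh7 column.

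The p53 target MDM2 (ENSG00000135679) encodes the ubiquitin ligase that binds p53 and returns it to a low level. It was listed in HepG2 cells, where 516 GO terms and 18 KEGG pathways held it, the most of any member. Its pathways included p53 signaling pathway, Cell cycle, Ubiquitin mediated proteolysis, FoxO signaling pathway and PI3K-Akt signaling pathway. In Huh7 cells MDM2 was under no term and no pathway. Its relative MDM4, which inhibits p53 without degrading it, was listed in neither line.

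MDM2 is transcribed from an upstream promoter and from an internal one that p53 controls. Promoter sequences are shown for the members with a match in the search described here. RefSeq windows of GRCh38.p14, from 250 bases before to 50 bases after a transcription start, were searched for the p53 consensus, which consists of adjacent copies of a 10-base unit. RefSeq windows were found for 7 of the 10 genes, with 14 windows in all, and not for TP53INP1, RRM2B and GADD45A. The full 20-base site without a spacer, with its C and G core bases intact and at most 2 mismatches, was found in 100 of 35116 windows (0.285%). Because the consensus is its own reverse complement, a match counts for both strands. Among the members, only the windows of the internal MDM2 promoter held such a match, at chr12:68808923-68808942 on the plus strand. In its sequence below, capitals mark bases that fit the consensus and small letters mark the mismatches.
MDM2 site: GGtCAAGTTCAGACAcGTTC
The site began at position -94 from the start of an internal transcript. In GENCODE release 29, it lay in an intron of 4 of 19 coding MDM2 transcripts, outside the other 15, and in no exon. The window around it, chr12:68808767-68809066, is given with the matching site in capitals. Stretches in small letters missed this criterion, for example by a changed core base, and may still hold p53 sites.
MDM2 internal promoter: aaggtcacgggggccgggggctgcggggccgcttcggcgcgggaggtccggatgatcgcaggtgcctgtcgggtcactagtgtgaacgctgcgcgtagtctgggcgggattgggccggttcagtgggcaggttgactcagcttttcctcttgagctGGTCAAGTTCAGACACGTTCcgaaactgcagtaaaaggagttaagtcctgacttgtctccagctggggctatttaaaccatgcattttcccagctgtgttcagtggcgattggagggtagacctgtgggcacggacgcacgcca
A single 10-base unit without mismatch is a far weaker criterion and occurred in 2329 windows (6.63%). Among the members it occurred in SESN1, listed in HepG2 cells, and in FDXR, listed in neither line. The windows are chr6:109008939-109009238 and chr17:74872945-74873244, each on the minus strand, with the unit in capitals. The letters of the unit differ between the genes, although each fits the consensus without mismatch. A link between such a match and listing was not tested. The SESN1 window overlapped an exon of 1 of 3 coding SESN1 transcripts and the FDXR window an exon of 8 of 10 coding FDXR transcripts.
SESN1: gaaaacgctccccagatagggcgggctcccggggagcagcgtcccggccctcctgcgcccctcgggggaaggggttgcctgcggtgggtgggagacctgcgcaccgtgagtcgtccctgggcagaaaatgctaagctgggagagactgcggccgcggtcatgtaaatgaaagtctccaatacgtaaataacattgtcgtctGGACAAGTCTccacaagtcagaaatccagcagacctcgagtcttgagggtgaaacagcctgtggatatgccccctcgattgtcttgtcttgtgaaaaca
FDXR: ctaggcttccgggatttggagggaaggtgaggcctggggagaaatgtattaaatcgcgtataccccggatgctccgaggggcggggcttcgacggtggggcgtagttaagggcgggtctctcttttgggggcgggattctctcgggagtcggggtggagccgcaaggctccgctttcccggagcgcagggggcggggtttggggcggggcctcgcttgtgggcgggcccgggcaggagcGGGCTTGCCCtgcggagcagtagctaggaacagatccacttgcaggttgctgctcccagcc
The windows of BTG2, ZMAT3, TP53I3 and PLK3 held neither the unit nor the full site. These matches are descriptions of letters in short windows. Sites outside the windows, or sites that miss these criteria, were not searched.

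GADD45A, BTG2 and PLK3 are described next. GADD45A (ENSG00000116717) encodes a small stress protein that restrains cell cycle kinases and activates stress kinases. It was listed in both lines, under 244 GO terms and 4 KEGG pathways in each. The pathways were p53 signaling pathway, Cell cycle, FoxO signaling pathway and MAPK signaling pathway. The equal numbers follow from the annotation of the gene and are no likeness of the lines. The relatives of GADD45A were split between the lines, as GADD45B was listed in HepG2 cells only and GADD45G in Huh7 cells only. Each line thus listed 2 of the 3 GADD45 genes.

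PLK3 (ENSG00000173846), a polo-like kinase activated by stress, was also listed in both lines, under 304 GO terms and the KEGG pathways FoxO signaling pathway and Tuberculosis in each. The polo-like kinase PLK1, which drives mitosis, was listed in HepG2 cells only, and PLK5 in Huh7 cells only. PLK2 and PLK4 were listed in neither. BTG2 (ENSG00000159388), an antiproliferative protein that recruits the CCR4-NOT deadenylase to mRNAs, was listed in HepG2 cells under 294 GO terms and the KEGG pathway RNA degradation. Among its relatives, BTG1 and BTG4 were listed in HepG2 cells only, TOB2 in both lines, and BTG3 and TOB1 in neither.

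TP53INP1, SESN1 and the remaining members follow. TP53INP1 (ENSG00000164938), a stress protein that assists p53 and takes part in autophagy, was listed in HepG2 cells under 202 GO terms. Its paralog TP53INP2 was listed in both lines. SESN1 (ENSG00000080546) encodes a sestrin, one of the stress proteins that sense leucine and restrain mTORC1 signaling. It was listed in HepG2 cells under 117 GO terms and p53 signaling pathway. All 3 sestrin genes were listed in HepG2 cells, while SESN2 alone was listed in Huh7 cells. Under the narrow term leucine binding, 3 of 8 genes were listed in HepG2 cells, SESN1 among them, beside 21.6% of all background genes. These may be the sestrins counted again, and the term is too small to compare.

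ZMAT3 (ENSG00000172667) encodes a zinc finger protein that binds RNA, and was listed in HepG2 cells under 70 GO terms, the fewest of the listed members. Its narrowest term was positive regulation of apoptotic process, with 135 listed genes of 475, beside 21.6% of all background genes. FDXR (ENSG00000161513), the mitochondrial ferredoxin reductase, and TP53I3 (ENSG00000115129), an oxidoreductase linked to oxidant production, were listed in neither line. The ferredoxins FDX1 and FDX2, which FDXR reduces, were not listed either. RRM2B (ENSG00000048392), the p53-inducible subunit of ribonucleotide reductase that supplies nucleotides for DNA repair, was likewise listed in neither line. Its cell cycle-dependent counterpart RRM2 was listed in Huh7 cells only, and the large subunit RRM1 in neither.

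Calling a gene depends on its reads and therefore on transcript length. The longest transcript of the 7 members listed in HepG2 cells ranged from 1496 bases (GADD45A) to 12633 bases (MDM2), with a median of 3509 bases. The 3 members not listed ranged from 1998 to 4931 bases, with a median of 2482 bases, and the median over all protein-coding genes was 3153 bases. The ranges overlapped. GADD45A, the shortest member, was listed in both lines. The part of length in the listing was not tested.

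The KEGG pathway p53 signaling pathway (hsa04115) was then set beside the members. In HepG2 cells, 27 of its 68 background genes were listed (39.7%), compared with 26.3% of the gene entries over all pathways, a ratio of 1.51. In Huh7 cells, 18 of 68 were listed (26.5%), compared with 25.8% of all entries, a ratio of 1.03. Among pathways with at least 10 background genes, 15 of 272 had a larger listed share than this one for HepG2, against 131 of 274 for Huh7. The listed members in the row were MDM2, SESN1, ZMAT3 and GADD45A for HepG2, and GADD45A alone in Huh7 cells. Without these 4 genes in the listed or background numbers, the shares were 35.9% and 26.6%. Unlisted members, if any, could not be taken out, because only listed genes are named. The 4 genes were thus picked by their listing, which by itself lowers the HepG2 share.

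The listed genes of this pathway overlapped in 14 genes, which made up 14 of the 27 for HepG2 and 14 of the 18 for Huh7. The shared genes included CDKN1A, which encodes the kinase inhibitor p21, the cyclin genes CCND1, CCNE2 and CCNG2, the apoptosis genes BBC3, PMAIP1 and TNFRSF10B, and ADGRB1, CD82, GADD45A, SESN2, STEAP3 and TP73. The 13 genes of HepG2 cells only were the members MDM2, SESN1 and ZMAT3, the death genes BAX, FAS, EI24 and SHISA5, the cell cycle genes CCNB1, CCNB3 and CDK6, and GADD45B, IGF1 and SESN3. The 4 genes of Huh7 cells only were GADD45G, PIDD1, RRM2 and THBS1. The remaining 37 background genes of the pathway were listed in neither line, and the table does not name them.

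The other genes of p53 biology were counted over 3 further lists. Of 40 other known p53 targets, 18 (45.0%) were listed in HepG2 cells, compared with 15 (37.5%) in Huh7 cells, above the 21.6% and 19.7% of all background genes. Listed in both lines were 10 of them, among which were CDKN1A, BBC3, PMAIP1, TNFRSF10B, CD82, SESN2, SPATA18, STEAP3 and GDF15. The 8 listed in HepG2 cells only were BAX, FAS, AEN, TIGAR, ACER2, SHISA5, RPS27L and EI24. BAX encodes the pore-forming protein of the mitochondrial death pathway, and TIGAR an enzyme that lowers glycolytic flux. The 5 listed in Huh7 cells only were TRIAP1, NINJ1, TP53I11, PIDD1 and THBS1, and 17 were listed in neither line. Of the 15 targets listed in Huh7 cells, the line with mutant p53, 10 were thus listed in HepG2 cells as well. Listing gives no direction, and a link between p53 status and these counts was not tested.

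The genes that act on p53 formed the second list. Of 20 genes in this list of relatives and regulators, 3 (15.0%) were listed in HepG2 cells, compared with 2 in Huh7 cells, both below the shares of all background genes. TP73, a p53 relative that can bind the same sites, was listed in both lines, and TP63 in HepG2 cells only. PPP1R13B and PPP1R13L, of the ASPP family that binds p53, were listed in HepG2 cells only and in Huh7 cells only, respectively. The damage kinases ATM, ATR, CHEK1 and CHEK2 were listed in neither line. Of the 19 family and partner genes of the members, 8 (42.1%) were listed in HepG2 cells, compared with 6 (31.6%) in Huh7 cells. Both shares were above the 21.6% and 19.7% of all background genes. In both lines, 3 of the 19 were listed, beside 10.3% of all background genes.

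**Figure D2:**
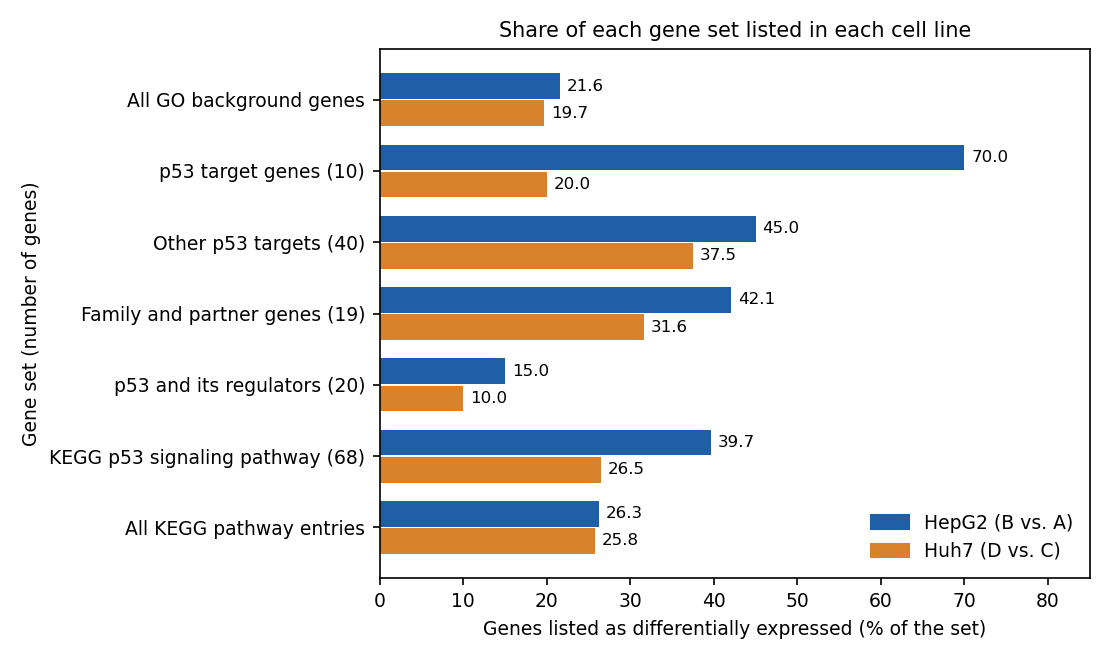
Percentage of each gene set listed as differentially expressed in HepG2 cells (blue) and Huh7 cells (orange), with the number of genes of each set in brackets. For the p53 target genes the bars stand for 7 and 2 of 10 genes, beside 21.6% and 19.7% of all GO background genes.

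GO terms that name p53 were examined next. There were 20 such terms, of which 17 had at least 10 background genes. In all 17, the share of genes listed was higher in HepG2 cells than in Huh7 cells. In HepG2 cells, 16 of the 17 lay above the share of all background genes, and p53 binding lay below it at 19.7%. In Huh7 cells, 4 of the 17 lay above it. These counts depended on the background, being 14 and 3 against the shares of protein-coding genes, and 10 and 1 against the shares of KEGG entries. The terms are nested and share genes, with 65 different listed genes for HepG2, 45 for Huh7 and 27 in common, so the 17 terms are not independent counts.

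The widest term, signal transduction by p53 class mediator, had 61 of its 247 genes listed for HepG2 (24.7%), against 39 for Huh7 (15.8%). The members under it were MDM2, TP53INP1, BTG2, GADD45A and PLK3 in HepG2 cells, and GADD45A and PLK3 in Huh7 cells. Its apoptotic branch, intrinsic apoptotic signaling pathway by p53 class mediator, held 26 of 86 (30.2%) and 14 of 86 (16.3%), with MDM2 as the only member. The branch that leads to cell cycle arrest held 15 of 65 (23.1%) and 11 of 65 (16.9%). MDM2, BTG2, GADD45A and PLK3 were among the 15, and GADD45A and PLK3 among the 11. The difference between the lines was thus 14.0 percentage points in the apoptotic branch and 6.15 in the arrest branch, with no error on either. All background genes stood at 21.6% and 19.7%. The gap was wider for positive regulation of signal transduction by p53 class mediator (42.9% and 23.8%). It was narrower for DNA damage response, signal transduction by p53 class mediator (26.7% and 22.4%). A difference between the branches was not tested.

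**Figure D3:**
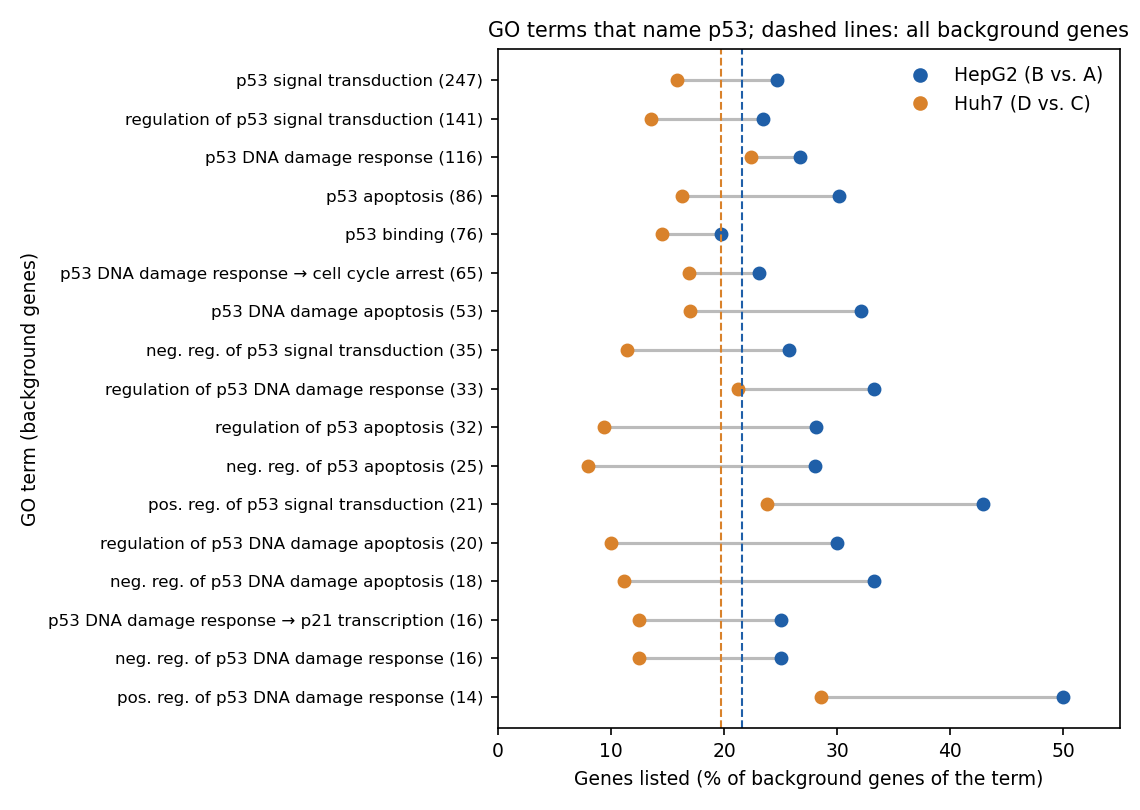
Percentage of the background genes listed in HepG2 cells (blue) and Huh7 cells (orange) for the 17 GO terms that name p53 and have at least 10 background genes, with shortened term names and background numbers in brackets; dashed lines are the shares of all background genes. Each blue point lies to the right of its orange point.

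Wider stress terms were examined in the same way. Response to DNA damage stimulus had 193 of its 926 genes listed for HepG2 (20.8%), against 158 for Huh7 (17.1%). Both were below the shares of all background genes, 21.6% and 19.7%. DNA repair was at 17.9% and 15.1% of 582 genes, and DNA damage checkpoint at 20.2% and 18.5% of 168 genes. These too were below the background in each line. Response to oxidative stress held 123 of 441 (27.9%) and 100 (22.7%). Its members were MDM2, TP53INP1, SESN1 and PLK3 in HepG2 cells, and PLK3 in Huh7 cells. Cell cycle arrest was at 28.4% and 24.9% of 257 genes, and intrinsic apoptotic signaling pathway at 31.2% and 23.5% of 298 genes. For negative regulation of cell proliferation, the shares were 27.5% and 25.6% of 763 genes, with BTG2 and TP53INP1 as its members in HepG2 cells and none in Huh7 cells.

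**Figure D4:**
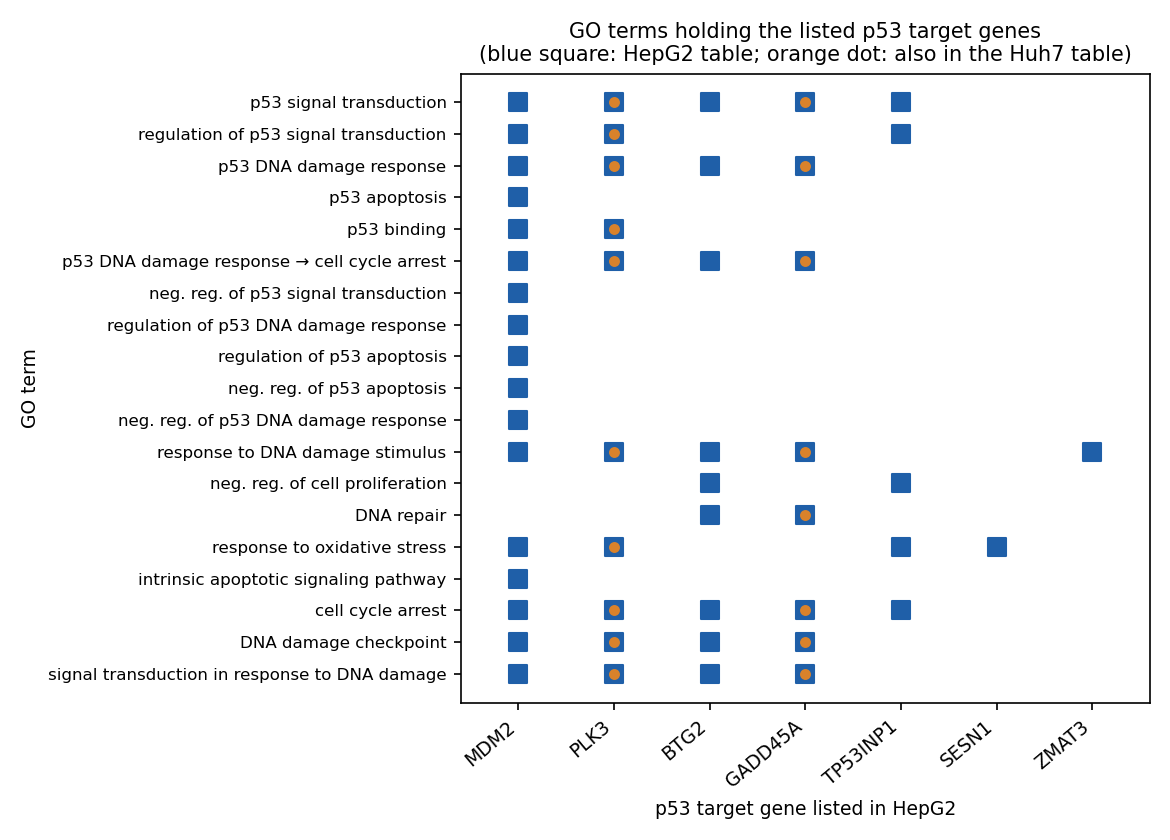
GO terms (rows) that held each of the 7 p53 target genes listed in HepG2 cells (columns), where a blue square is membership in the HepG2 table and an orange dot membership in the Huh7 table as well. Orange dots appear only for PLK3 and GADD45A, and SESN1 and ZMAT3 have 1 square each.

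The annotations that the listed members shared were compared last. The terms with under 500 background genes that held 5 of the 7 members in HepG2 cells were signal transduction by p53 class mediator, cell cycle arrest, negative regulation of cell cycle, and positive regulation of catabolic process with its cellular form. For the last of these, 70 of 245 genes (28.6%) were listed for HepG2, against 57 (23.3%) for Huh7. The shares of all background genes were 21.6% and 19.7%. The members under it were MDM2, TP53INP1, SESN1, BTG2 and PLK3 in HepG2 cells, and PLK3 in Huh7 cells. The terms were picked by the members listed in HepG2 cells, which by itself raises the HepG2 share. Likeness was measured by the Jaccard index, the GO terms shared by a pair of genes divided by the terms that hold either. Between members it was highest for MDM2 and PLK3 (0.426, 245 shared terms) and lowest for BTG2 and ZMAT3 (0.103, 34 shared terms). In HepG2 cells, the listed genes closest to SESN1 were its relative SESN3 (0.671), RUFY4 (0.533) and ATG101 (0.415). Those closest to GADD45A were its relative GADD45B (0.554), CLSPN (0.443) and DUSP5 (0.437). TP53INP1 was closest to its paralog TP53INP2 (0.539), BANP (0.467) and MLLT11 (0.458). A relative thus came first for each of these members. PLK3 was closest to PLK1 (0.481), UBE2D1 (0.465) and MDM2, and MDM2 to PLK3, CDK1 (0.354) and CDKN1A (0.353). BTG2 was closest to E2F8 (0.415), CPEB3 (0.414) and CNOT6L (0.413), of which CNOT6L is a subunit of the deadenylase that BTG2 recruits. ZMAT3 was closest to PNMA2 (0.60), YPEL3 (0.447) and ZCCHC7 (0.438). In Huh7 cells, GADD45A was closest to GADD45G (0.488), CLSPN (0.443) and DUSP5 (0.437), and PLK3 to AURKA (0.431) and TRIB3 (0.418). This index compares annotation and not expression.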

How the data were processed

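Total RNA of 4 groups with 1 library each was depleted of ribosomal RNA and sequenced. Per the labels, the submitters' processing notes name Bowtie2 2.2.8, HISAT2, StringTie 1.3.1 and Cuffdiff 2.1.1. The genome build is not given in the sources used here. The paper's methods name Cuffdiff for the differential test, whereas its results name edgeR. The authors deposited tables of GO terms (GOseq) and KEGG pathways (KOBAS) with numbers of listed and background genes, gene identifiers, and enrichment p-values, which were not used. Read counts and depth were not analysed here.

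Each list was rebuilt as the union of identifiers over all GO terms, and its size (4783 and 4369 genes) equalled the deposited one. Symbols were matched through a table of gene identifiers for 4755 and 4346 genes. Transcript lengths came from GENCODE release 29 and promoter windows from RefSeq (GRCh38.p14), by gene only. No set test was run. The scripts (Python 3.11.15) were tested on simulated tables and sequences. The members and lists were chosen with earlier results of these data known. All 10 members are named, as are the listed genes of the other lists and of the KEGG row, and the 3 closest genes of each listed member by Jaccard index, except for a few genes that are counted but not reported here by name. MDM4, PLK2, PPM1D and SESN2 stand in 2 of the lists.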

Additional observations from a re-analysis of the deposited data

How the results depend on the processing

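The counts of listed p53 targets, 7 for HepG2, 2 for Huh7 and 2 shared, were identical when the lists were taken from the KEGG tables, from biological process terms only, or from either kind of table. All of these annotate the same gene calls, so identical counts were close to fixed in advance, here and for the other lists. They do not test the calls themselves. With CDKN1A as a further member, the counts were 8, 3 and 3. The counts of the 3 other lists were identical with biological process terms only and with either kind of table, and the shares of p53 signaling pathway stayed within their 95% Wilson intervals, which cover counting error only. The share of all genes moved with the denominator. Over protein-coding genes of GENCODE release 29 it was 23.9% for HepG2 and 21.9% for Huh7, and over KEGG gene entries it was 26.3% and 25.8%. Of the 17 GO terms that name p53, 16 for HepG2 and 4 for Huh7 exceeded the share of all background genes. In a comparison added after seeing the data, 14 and 3 exceeded that of protein-coding genes, and 10 and 1 that of KEGG entries, since these shares are higher. The background also contains genes these cells may not express, and a background of expressed genes was not used here. No paired analysis was possible because each group has 1 library and no test was run.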
